A study of Drosophila melanogaster with 8 samples.

Results

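Gene expression was examined for 34 genes that were on in WT larvae and close to off in both minor snRNA deletions. They were chosen by their TPM, a level corrected for transcript length, with every library summing to 1000000. A gene was taken when it reached a TPM of at least 2 in both WT libraries and stayed under 0.5 in all 4 libraries of U12Δ/Δ and U6atacΔ/Δ. A further condition of the rule, under 1 TPM in both SmnΔ/Δ libraries with at least 10 in both WT libraries, left out 0 genes. The rule found 34 of the 17473 genes in the tables, or 0.412% of the 8251 genes with at least 2 TPM in both WT libraries and 1.23% of the 2757 of these whose smaller WT value was no higher than the highest among the 34. Since these values chose the genes, the fall from WT to U12Δ/Δ and U6atacΔ/Δ is a description and not a result.

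The 8 libraries came from whole wandering L3 larvae of 4 Drosophila melanogaster strains, with 2 libraries per strain and RNA of 12 larvae pooled in each. WT was w1118. U12Δ/Δ and U6atacΔ/Δ (sn12 and sn6 Knock Out in the titles) were homozygous CRISPR/Cas9 deletions of an snRNA of the minor spliceosome, and SmnΔ/Δ (SMN Knock Out) was a homozygous deletion of Smn, so that every cell of the larva carried the deletion. By their expression, the study placed the SmnΔ/Δ larvae at an earlier point of the third instar than the other strains. Stage and genotype can thus not be told apart for SmnΔ/Δ. The study grouped U12Δ/Δ and U6atacΔ/Δ with WT in stage, and this match was not tested here. The sex of the larvae was not given in the sources used here, and pooling hides the spread between animals. The U12 snRNA was listed at 0 in both U12Δ/Δ libraries and between 0.0724 and 1.33 TPM in the other 6, the U6atac snRNA was at 0 in all 8 and could not check its label, and Smn stood at 4.57 and 0.653 TPM in SmnΔ/Δ against 24.7 and 28.3 in WT, 9.76 and 200.3 in U12Δ/Δ and 14.0 and 9.57 in U6atacΔ/Δ.

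The minor spliceosome removes a small class of introns, and U12 and U6atac are snRNAs that only it uses. SMN assembles the protein rings of the spliceosomal snRNPs of both the major and the minor spliceosome. Wandering L3 larvae hold imaginal discs, whose cells divide and form the adult appendages, a nervous system in which neuroblasts divide, and gonads, in which the male germline already forms spermatocytes. Many genes of such tissues are used by a small part of the larval cells, so their TPM in a whole larva is low. In whole larvae, fewer cells of a type and less RNA per cell cannot be told apart.

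The word silent is too strong for most of these genes. Of their 136 values in the 4 minor snRNA libraries, 8 were listed at 0, spread over 5 genes. The median was 0.134 TPM and the highest 0.497. In 11 of the 34 genes all 4 values were under 0.25. The WT side was low as well. The smaller WT value lay under 5 TPM in 33 of the 34 genes and reached 6.33 in unc-4, and 28 genes were under 10 TPM in both WT libraries. The tables give no read numbers, and no counting error was computed for such low values.

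**Figure D1:**
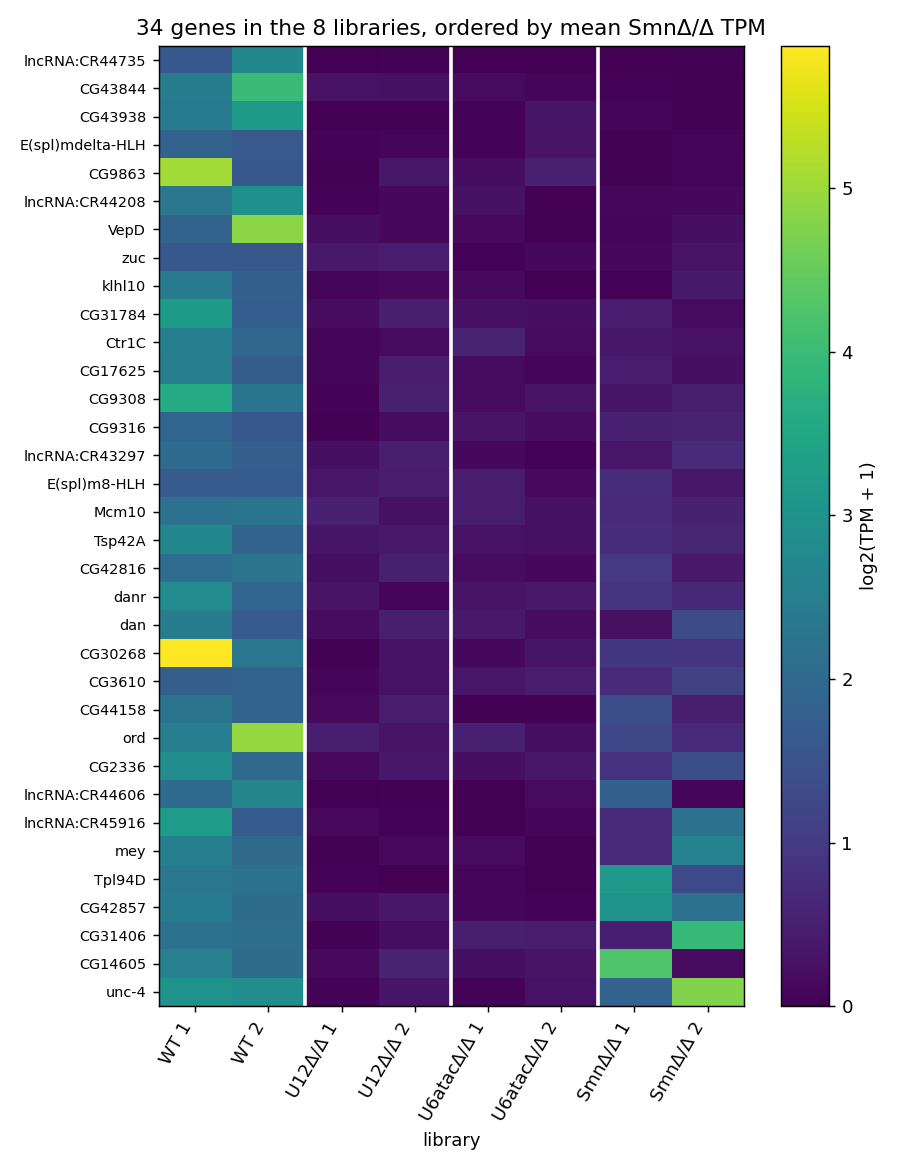
Expression of the 34 genes (rows) as log2(TPM + 1) in the 8 libraries (columns), ordered by the mean TPM in SmnΔ/Δ. The U12Δ/Δ and U6atacΔ/Δ columns are dark by the choice of the genes, while the SmnΔ/Δ columns are dark for 14 genes under 0.5 TPM in both libraries and bright in both for unc-4 and CG42857.

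The WT libraries themselves differed. The larger WT value exceeded the smaller by a median of 1.70 times over the 34 genes, within 2-fold in 20 of them. WT 1 was the higher library in 22 genes and WT 2 in 12. The extremes were CG9863, with 32.1 and 2.045 TPM, and E(spl)m8-HLH, with 2.24 and 2.27 TPM in WT 1 and WT 2. Over 11122 genes averaging 1 TPM or more, between 44.0% and 50.3% differed more than 2-fold in TPM + 1 between the libraries of a strain. The Spearman correlation between the libraries of a strain was 0.671 to 0.748. Leaving a library out of the rule removes a bound, so further genes can pass. With a WT library left out, the condition on SmnΔ/Δ rests on the other WT library and can drop genes. The rule then kept 32 of the 34 without WT 1 and 31 without WT 2. With WT 1 left out it takes 138 genes, with WT 2 left out 257, with U12Δ/Δ 2 left out 81 and with U6atacΔ/Δ 2 left out 58, and after median-ratio scaling of the libraries it takes 18, all of them among the 34.

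Several genes sat at the edge of the rule. Just inside the WT bound were CG9863, zuc and lncRNA:CR44735, whose smaller WT values were 2.045, 2.048 and 2.055 TPM. Just outside it were CG15475, lncRNA:CR44917 and CG15882, with 1.95, 1.94 and 1.93 TPM. At the upper bound of the minor snRNA libraries, Ctr1C, CG14605 and CG9863 were inside with a highest value of 0.497, 0.480 and 0.447 TPM. CG11298, t-Grip128 and E(spl)mgamma-HLH were outside with 0.508, 0.510 and 0.513 TPM.

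By known role, 5 of the genes act in germ cells, 5 are transcription factors or nuclear regulators of development, 1 acts in DNA replication and 2 lie at the cell surface or in the apical matrix. Another 5 are noncoding RNAs. The other 16 are described here by their values alone. These tissues are background from the known roles of the genes, since whole larvae give no tissue of origin.

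Among the germline genes, Tpl94D encodes a transition protein that enters spermatid chromatin when histones are removed. The TPM of Tpl94D was 4.10 and 3.53 in WT, 0.0449 and 0.0152 in U12Δ/Δ, 0.0772 and 0 in U6atacΔ/Δ, and 7.88 and 1.47 in SmnΔ/Δ. Its SmnΔ/Δ values lay above all 4 minor snRNA libraries, and only SmnΔ/Δ 1 exceeded WT. The gene lies on chromosome 3R from 22966284 to 22967842 of dm6. Spermatids also use klhl10, an adaptor of a Cullin-3 ubiquitin ligase needed when sperm cells separate, which is annotated on an unmapped scaffold. In WT, klhl10 stood at 4.47 and 2.54 TPM, in U12Δ/Δ at 0.0682 and 0.105, in U6atacΔ/Δ at 0.108 and 0.0153 and in SmnΔ/Δ at 0.0403 and 0.332. Ctr1C is a copper transporter of the male germline. Ctr1C had 4.77 and 2.85 TPM in WT, 0.0723 and 0.133 in U12Δ/Δ, 0.497 and 0.127 in U6atacΔ/Δ, and 0.298 and 0.224 in SmnΔ/Δ. Both genes were under 0.5 TPM in all 6 deletion libraries.

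Germ cells of both sexes use ord and zuc. The first holds sister chromatids together in meiosis, on chromosome 2R from 23271257 to 23275536. For ord the WT libraries gave 4.75 and 29.6 TPM, those of U12Δ/Δ 0.401 and 0.248, those of U6atacΔ/Δ 0.421 and 0.172, and those of SmnΔ/Δ 1.43 and 0.643. The WT libraries were 6.23-fold apart, and both SmnΔ/Δ values were below both WT values and above the 4 minor snRNA libraries. The nuclease of zuc processes the precursors of piRNAs, small RNAs that silence transposons. The TPM of zuc was 2.05 and 2.09 in WT, 0.33 and 0.383 in U12Δ/Δ, 0.048 and 0.0966 in U6atacΔ/Δ, and 0.097 and 0.236 in SmnΔ/Δ. Its WT values were close to each other and to the bound of the rule.

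Of the regulators of development, dan and danr are neighbouring genes for nuclear proteins that specify the antenna and act in the eye disc. They lie 44480 bp apart on chromosome 3R. In WT, danr stood at 6.14 and 2.80 TPM, in U12Δ/Δ at 0.236 and 0.0643, in U6atacΔ/Δ at 0.245 and 0.321 and in SmnΔ/Δ at 0.859 and 0.595. dan had 4.52 and 2.22 TPM in WT, 0.138 and 0.409 in U12Δ/Δ, 0.317 and 0.138 in U6atacΔ/Δ, and 0.203 and 1.565 in SmnΔ/Δ. In both genes the SmnΔ/Δ values were below both WT values, and for dan SmnΔ/Δ 1 lay in the range of the minor snRNA libraries.

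E(spl)mdelta-HLH and E(spl)m8-HLH belong to the Enhancer of split complex, whose bHLH repressors are direct targets of Notch signalling in discs and neuroblasts. They lie 41607 bp apart on chromosome 3R, from 25997621 to 25998633 and from 26040240 to 26041008, and each is a single exon. For E(spl)mdelta-HLH the WT libraries gave 2.65 and 2.12 TPM, those of U12Δ/Δ 0.0475 and 0.0692, those of U6atacΔ/Δ 0.0428 and 0.236, and those of SmnΔ/Δ 0.0238 and 0.0629. The TPM of E(spl)m8-HLH was 2.24 and 2.27 in WT, 0.278 and 0.357 in U12Δ/Δ, 0.395 and 0.109 in U6atacΔ/Δ, and 0.671 and 0.281 in SmnΔ/Δ. The WT libraries of both genes were close, and all 6 deletion libraries were below them.

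The other genes of the complex were then read as a group, which was chosen after its values had been seen. Of its 11 genes, 10 had all 4 minor snRNA libraries below both WT libraries, which 17.4% of the 17473 genes do. Among the 9 genes that the rule did not take, 8 did so, with E(spl)m4-BFM as the exception. Of these 9 genes, 6 were over the bound of 0.5 TPM in a minor snRNA library and 4 were under 2 TPM in a WT library. The summed TPM of the complex was 48.2 and 48.3 in WT, 10.7 and 10.5 in U12Δ/Δ, 12.1 and 7.74 in U6atacΔ/Δ, and 33.3 and 15.9 in SmnΔ/Δ. The SmnΔ/Δ libraries thus stood between the others, and 6 of the 9 genes that the rule did not take had both SmnΔ/Δ libraries below both WT libraries, against 22.5% of all genes. With limma, 0 of the 6 genes of the complex that were tested had an adjusted p under 0.05 in U12Δ/Δ and U6atacΔ/Δ against WT. The unadjusted limma p was under 0.05 for 4 of them, in the downward direction, against 10% of all genes tested.

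The homeodomain factor unc-4, which acts in neurons, is on chromosome X from 17768569 to 17778708. In WT, unc-4 stood at 6.905 and 6.33 TPM, in U12Δ/Δ at 0.0356 and 0.267, in U6atacΔ/Δ at 0.0403 and 0.226 and in SmnΔ/Δ at 2.58 and 26.3. It had the highest smaller WT value of the 34 genes and the highest single SmnΔ/Δ value, in SmnΔ/Δ 2. Mcm10 helps to load and start the replicative helicase at DNA origins. Mcm10 had 3.61 and 3.82 TPM in WT, 0.445 and 0.204 in U12Δ/Δ, 0.376 and 0.206 in U6atacΔ/Δ, and 0.633 and 0.456 in SmnΔ/Δ. The WT libraries of Mcm10 were close, and both SmnΔ/Δ values were below them and just above the minor snRNA libraries. Of the surface and matrix genes, mey encodes a ZP-domain protein of the epidermal apical matrix. For mey the WT libraries gave 4.83 and 3.06 TPM, those of U12Δ/Δ 0.0218 and 0.108, those of U6atacΔ/Δ 0.135 and 0, and those of SmnΔ/Δ 0.632 and 5.06. Tsp42A encodes a tetraspanin. The TPM of Tsp42A was 5.72 and 2.67 in WT, 0.269 and 0.325 in U12Δ/Δ, 0.212 and 0.197 in U6atacΔ/Δ, and 0.697 and 0.523 in SmnΔ/Δ. The SmnΔ/Δ libraries of mey were far apart, with SmnΔ/Δ 2 above and SmnΔ/Δ 1 below both WT libraries, while those of Tsp42A were both low.

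The 5 noncoding RNAs were lncRNA:CR43297, lncRNA:CR44208, lncRNA:CR44606, lncRNA:CR44735 and lncRNA:CR45916. In WT, lncRNA:CR44735 stood at 2.055 and 5.73 TPM, in U12Δ/Δ at 0 and 0.0241, in U6atacΔ/Δ at 0 and 0 and in SmnΔ/Δ at 0 and 0.0299. It had 3 of the 8 values listed at 0 in the minor snRNA libraries. lncRNA:CR45916 had 8.29 and 2.175 TPM in WT, 0.107 and 0.0467 in U12Δ/Δ, 0.00765 and 0.0805 in U6atacΔ/Δ, and 0.632 and 3.59 in SmnΔ/Δ. The single exon of lncRNA:CR45916 contains all 78 bases annotated as mir-9a, the precursor of a microRNA that restrains the formation of sensory organs. In the other 3 noncoding RNAs WT lay between 2.42 and 6.67 TPM and SmnΔ/Δ between 0.0651 and 2.53 TPM. Of the 5, 4 had both SmnΔ/Δ libraries below both WT libraries, against 30.2% of the 8251 genes with at least 2 TPM in both WT libraries. That count uses the WT values that chose the genes and is a description.

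The genes without a role given here included the highest WT values, each in a single library. For CG30268 the WT libraries gave 57.5 and 3.98 TPM, those of U12Δ/Δ 0.0234 and 0.218, those of U6atacΔ/Δ 0.0862 and 0.259, and those of SmnΔ/Δ 0.946 and 0.854. The TPM of CG9863 was 32.1 and 2.045 in WT, 0.0239 and 0.288 in U12Δ/Δ, 0.143 and 0.447 in U6atacΔ/Δ, and 0.0284 and 0.07 in SmnΔ/Δ. In WT, VepD stood at 2.66 and 27.7 TPM, in U12Δ/Δ at 0.179 and 0.092, in U6atacΔ/Δ at 0.117 and 0.00856 and in SmnΔ/Δ at 0.0733 and 0.186. In all 3 the WT libraries were more than 10-fold apart, and both SmnΔ/Δ values were below both WT values. CG9308 had 11.3 and 3.90 TPM in WT, 0.0324 and 0.433 in U12Δ/Δ, 0.123 and 0.232 in U6atacΔ/Δ, and 0.268 and 0.41 in SmnΔ/Δ. For CG43844 the WT libraries gave 4.53 and 14.95 TPM, those of U12Δ/Δ 0.226 and 0.205, those of U6atacΔ/Δ 0.132 and 0.0781, and those of SmnΔ/Δ 0.047 and 0.00996. The TPM of CG43938 was 4.34 and 8.225 in WT, 0 and 0 in U12Δ/Δ, 0.0474 and 0.266 in U6atacΔ/Δ, and 0.0738 and 0 in SmnΔ/Δ. In these 3 genes, too, the WT and SmnΔ/Δ libraries did not overlap. The values of CG43938 were at 0 in both U12Δ/Δ libraries and in SmnΔ/Δ 2. CG42857 was the only gene of this group with at least 2 TPM in both SmnΔ/Δ libraries. In WT, CG42857 stood at 4.26 and 3.22 TPM, in U12Δ/Δ at 0.189 and 0.308, in U6atacΔ/Δ at 0.0619 and 0.0343 and in SmnΔ/Δ at 7.07 and 3.65. Both SmnΔ/Δ values lay above all 4 minor snRNA libraries and above the lower WT value. CG14605 had 4.88 and 3.21 TPM in WT, 0.108 and 0.48 in U12Δ/Δ, 0.188 and 0.246 in U6atacΔ/Δ, and 18.1 and 0.129 in SmnΔ/Δ. For CG31406 the WT libraries gave 3.57 and 3.38 TPM, those of U12Δ/Δ 0.0284 and 0.156, those of U6atacΔ/Δ 0.41 and 0.355, and those of SmnΔ/Δ 0.403 and 14.3. In these genes one SmnΔ/Δ library exceeded both WT libraries and the other was as low as the minor snRNA libraries. The remaining 7 genes of this group, CG31784, CG9316, CG3610, CG17625, CG2336, CG42816 and CG44158, had WT values of 2.07 to 8.19 TPM and SmnΔ/Δ values of 0.132 to 1.66 TPM.

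The rule used the SmnΔ/Δ libraries only in a condition that left out 0 genes. Their level was thus not bounded by the choice, but it is not free of it. Genes picked as low in 4 libraries may be low in a further library as well, and the gene sets compared below were picked by WT values alone. The shares below are therefore a description. The median over the 34 genes was 0.527 TPM in SmnΔ/Δ 1 and 0.408 in SmnΔ/Δ 2, against 4.41 and 3.05 in the WT libraries. In 14 of the 34 genes, or 41.2%, both SmnΔ/Δ libraries were under 0.5 TPM. Over the 8251 genes with at least 2 TPM in both WT libraries this share was 1.51%. Since low WT values come with low values elsewhere, it was also taken over the 2757 of these genes whose smaller WT value was no higher than 6.33 TPM, a set chosen after seeing the data, and there it was 3.08%. The 14 genes were CG31784, CG9316, CG17625, E(spl)mdelta-HLH, Ctr1C, CG9308, klhl10, zuc, VepD, CG9863, CG43844, CG43938, lncRNA:CR44208 and lncRNA:CR44735. They include 3 of the 5 germline genes and 1 of the 5 regulators.

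At the other end, 2 of the 34 genes, unc-4 and CG42857, had at least 2 TPM in both SmnΔ/Δ libraries, or 5.88%, where 81.7% of the 8251 genes and 64.1% of the 2757 genes did. A further 6 reached 2 TPM in a single SmnΔ/Δ library, namely CG14605, CG31406, Tpl94D, mey, lncRNA:CR44606 and lncRNA:CR45916. Each SmnΔ/Δ library alone would give 5 genes at 2 TPM or more. The remaining 12 genes lay between the bounds. In 27 of the 34 genes, or 79.4%, both SmnΔ/Δ values were below both WT values, against 30.2% of the 8251 genes and 24.8% of the 2757 genes. These shares use the WT values that chose the genes and are read only as a description. Other genes set SmnΔ/Δ apart from WT as well. Of the 12 genes tested of the Osiris family, which act in cuticle formation, 9 were called higher in SmnΔ/Δ than in WT with limma, at a median log2 fold change of 7.33. Of the 100 cuticle protein genes tested, 33 were called higher and 6 lower, at a median of 2.72. The part of this difference in the SmnΔ/Δ level of the 34 genes was not tested. In 14 genes both SmnΔ/Δ values were above all 4 minor snRNA libraries, against 13.4% of the 8251 genes and 17.3% of the 2757 genes, and nothing is read from this count since the rule set the minor snRNA values. The SmnΔ/Δ libraries exceeded both WT libraries together in 0 genes.

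**Figure D2:**
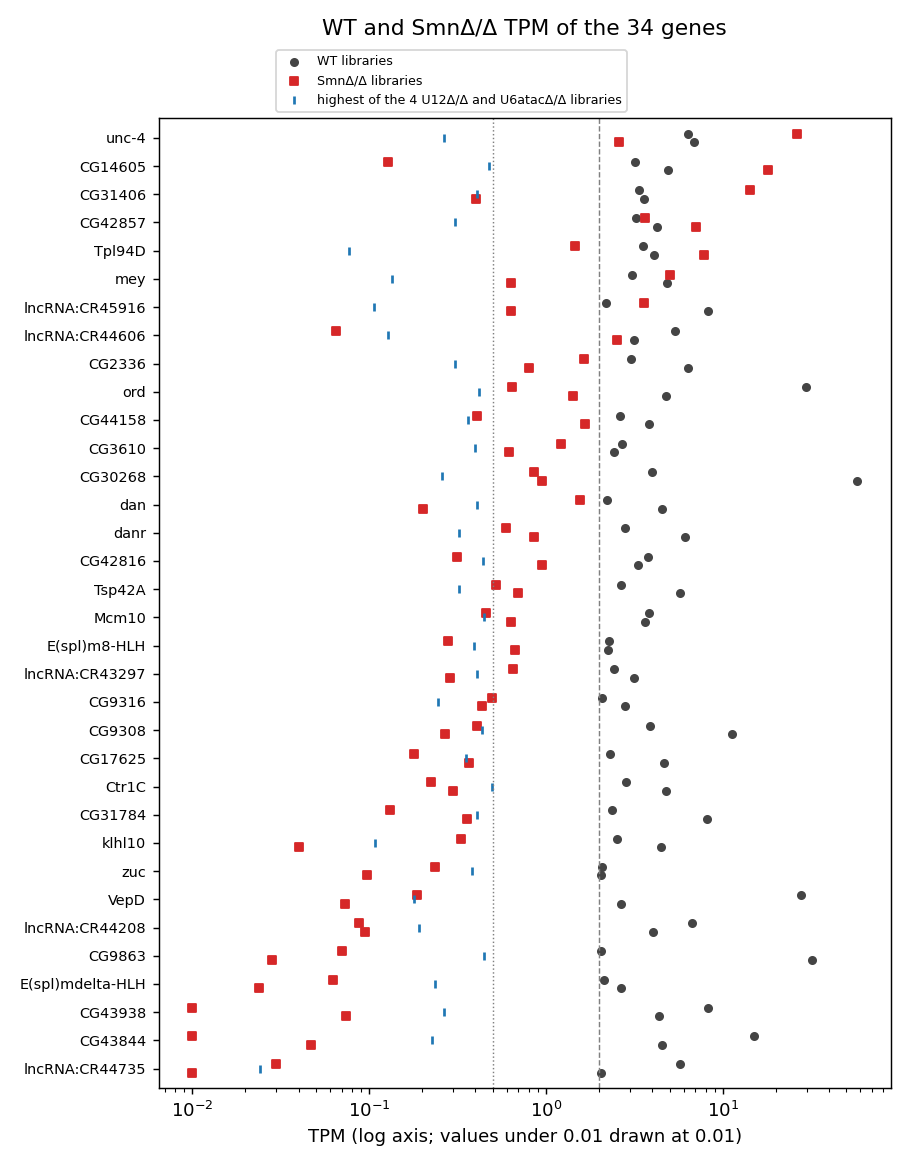
TPM of the 34 genes (rows, ordered by mean SmnΔ/Δ TPM) on a log axis, with circles for the 2 WT libraries, squares for the 2 SmnΔ/Δ libraries and a tick for the highest of the 4 minor snRNA libraries; the lines mark 0.5 and 2 TPM. The squares lie left of both circles in 27 genes, and both squares lie right of the line at 2 TPM only for unc-4 and CG42857.

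The strains were compared with limma on log2(TPM + 1) in a single fit over the 11122 genes averaging 1 TPM or more across the libraries, with Benjamini-Hochberg adjusted p values. Of the 34 genes, 26 passed this filter. The rule kept the minor snRNA values under 0.5, so a gene could pass only through its WT or SmnΔ/Δ values, and counts over the 26 are given as a description. In SmnΔ/Δ against WT, 2 of the 26 genes, CG43844 and CG43938, fell at an adjusted p under 0.05, where 0.279% of all genes tested were called lower. The log2 fold change was −3.19 (SE 0.64, adjusted p = 0.0498) for CG43844 and −2.76 (SE 0.55, adjusted p = 0.0486) for CG43938 with limma. Neither call was firm, since the adjusted p of CG43938 ran from 0.0189 to 0.409 and that of CG43844 from 0.0354 to 0.155 over the alternatives. Leaving out any U12Δ/Δ, U6atacΔ/Δ or SmnΔ/Δ library ended both calls, and with WT 2 left out neither gene passed the mean TPM filter. The unadjusted p was under 0.05 for 15 of the 26 genes, against 6.89% of all genes in that direction. The median log2 fold change was −1.60 over the 26 genes and −0.18 over all genes tested, and 23 of the 26 were below 0.

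In SmnΔ/Δ against U12Δ/Δ and U6atacΔ/Δ together, limma called 0 of the 26 genes, where 1.63% of all genes tested were called higher. The unadjusted p was under 0.05 for 4 of the 26 genes, against 10.2% of all genes in that direction. The rule held the minor snRNA side of this contrast under 0.5 TPM. The counts, fold changes and p values of these genes are therefore a description here. The nearest were CG42857, with a log2 fold change of 2.42 (SE 0.53, adjusted p = 0.061), unc-4 with 3.12 (SE 0.80, adjusted p = 0.109) and Tpl94D with 2.18 (SE 0.61, adjusted p = 0.147) from limma. After subtracting the mean of the 10 genes listed around each gene, the log2 fold change of unc-4 became −0.73. The median over the 26 genes was 0.50, beside 0.32 over all genes.

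In U12Δ/Δ and U6atacΔ/Δ against WT, the contrast the rule used, limma called 0 of the 26 genes and 0 of the 11122 genes lower. The unadjusted limma p was under 0.05 for 24 of the 26 and for 10% of all genes in that direction. The rule set these values, so the excess over all genes was fixed by the choice, here and in the counts that follow. The median log2 fold change was −2.18 over the 26 genes, between −3.90 and −1.76, and −0.46 over all genes. Without a filter on mean TPM, 11 of the 34 genes and 103 of all 17473 genes were called lower. With WT 2 left out, 4 of the genes and 120 of all genes were called lower. Both comparisons with WT share the WT libraries. Median-ratio scaling, which removes most of the shift of all genes, moved the median over all genes from −0.46 to 0.11 and that over the genes tested among the 34 from −2.18 to −2.01, with 21 of them then tested, and their SmnΔ/Δ median from −1.60 to −1.38.

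Features that the rule did not use were compared with those of the 8251 genes with at least 2 TPM in both WT libraries. A single annotated exon was found in 14 of the 34 genes, or 41.2%, against 11.2% of the 8251 genes and 14.5% of the 2757 with a similar WT level. The median transcript length was 1422 bases against 2115 and 1834 bases, and the 34 genes ranged from 401 to 4777 bases. Noncoding RNAs made up 14.7% of the genes against 0.764% and 1.67%. Chromosome 3R held 15 of the 34 genes, or 44.1%, against 23.8% of the 8251 genes, and 3L held 3, 2L 6, 2R 7 and X 2. None of the 34 lay within 10 kb of another, the closest pair being E(spl)mdelta-HLH and E(spl)m8-HLH. The study listed introns sensitive to a defective minor spliceosome in 61 genes, and 0 of the 34 are among these. Of its 19 candidate genes for rescue, 0 are among the 34.

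Some genes share annotated exon bases with another gene, and the sources used here do not say whether strand was used in counting, so reads there cannot be assigned with certainty. This holds for 6 of the 34 genes. Mcm10 shares 367 of its 2820 exonic bases with Ret on the other strand, and CG9863 shares 345 of 1134 with CG3502 on the other strand. CG3502 had 49.1 and 0.813 TPM in WT 1 and WT 2, so that it was high in the same WT library as CG9863. VepD shares 135 bases with qkr58E-3 on the other strand and 16 bases with CG6044 on its own strand, zuc 67 bases with CG34163 on the other strand, and CG30268 24 bases with CG30275 on its own strand. CG30275 stood at 56.2 and 42.3 TPM in WT, at 0.170 to 2.68 in the minor snRNA libraries and at 1.00 and 1.02 in SmnΔ/Δ, so that it, too, was lower in all 6 deletion libraries than in WT. A further 8 genes lie over another gene without sharing exon bases, and 20 lie over no other annotated gene.

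Marker lists, chosen with earlier results of these data known, give the level of other tissue genes in the same libraries. Among these lists, only that of noncoding RNAs held any of the 34 genes. The E(spl) list, chosen after its values were seen, holds 2 of them. The testis list of 32 genes summed to 604 and 272 TPM in WT, 107 and 233 in U12Δ/Δ, 87.8 and 63.0 in U6atacΔ/Δ and 507 and 501 in SmnΔ/Δ. All 4 minor snRNA libraries were below both WT libraries in sum. The SmnΔ/Δ sums rest on few genes, with betaTub85D, the tubulin of spermatogenesis, at 38.0 and 11.4 TPM in WT, 19.4 in SmnΔ/Δ 1 and 314 in SmnΔ/Δ 2. Of the 30 testis genes tested, 14 had all 4 minor snRNA libraries below both WT libraries, against 18.1% of all genes tested, limma called 0, and 9 had an unadjusted p under 0.05 in that direction, against 10% of all genes. In 8 of the 30 both SmnΔ/Δ libraries were below both WT libraries, against 25.6% of all genes tested. The testis genes Mst98Ca and Mst77F, both made in spermatogenesis, were among the 14. The TPM of Mst98Ca was 71.0 and 77.4 in WT, 1.00 and 4.94 in U12Δ/Δ, 2.42 and 4.57 in U6atacΔ/Δ, and 10.5 and 3.60 in SmnΔ/Δ.

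The list of imaginal disc patterning genes, 26 in all, summed to 334 and 673 TPM in WT, 170 and 141 in U12Δ/Δ, 117 and 95.4 in U6atacΔ/Δ and 326 and 323 in SmnΔ/Δ. Of its 22 genes tested, 12 had all 4 minor snRNA libraries below both WT libraries, against 18.1% of all genes tested, and 11 had both SmnΔ/Δ libraries below both WT libraries, against 25.6%. Single genes carry much of these sums. The wing factor sd stood at 193 and 127 TPM in SmnΔ/Δ and at 10.9 and 90.5 in WT, and the dorsal wing factor ap at 394 TPM in WT 2. An example of the 12 is salm, a zinc finger factor of the wing and eye. In WT, salm stood at 10.6 and 15.3 TPM, in U12Δ/Δ at 1.195 and 1.57, in U6atacΔ/Δ at 0.899 and 1.90 and in SmnΔ/Δ at 4.605 and 5.30. The 16 genes of replication and mitosis summed to 411 and 910 TPM in WT and to between 79.1 and 167 TPM in the 6 deletion libraries. The unadjusted p was under 0.05 and the change downward for 9 of the 16 in the minor snRNA deletions, against 10% of all genes, and for 6 of the 16 in SmnΔ/Δ, against 6.89%, with 0 called by limma in either. In 6 of the 16, or 37.5%, all 4 minor snRNA libraries were below both WT libraries, against 18.1% of all genes tested. In 12 of the 16 both SmnΔ/Δ libraries were below both WT libraries, against 25.6%. PCNA, the sliding clamp of DNA polymerases, was lower in all 6 deletion libraries than in both WT libraries, while genes such as CycA and Mcm6 overlapped WT. PCNA had 58.8 and 65.7 TPM in WT, 3.71 and 5.30 in U12Δ/Δ, 5.84 and 7.29 in U6atacΔ/Δ, and 38.2 and 5.68 in SmnΔ/Δ. The neuron list of 16 genes summed to 372 and 380 TPM in WT and 377 and 232 in SmnΔ/Δ. Its sums were 321 and 263 in U12Δ/Δ, below WT, and 459 and 557 in U6atacΔ/Δ, above it. Few genes carry the U6atacΔ/Δ sums, with Syt1 at 218 and 276 TPM, nSyb at 198 in U6atacΔ/Δ 1 and Gad1 at 184 in U6atacΔ/Δ 2. In both U6atacΔ/Δ libraries ChAT, VAChT, onecut, elav, fne and brp were below both WT libraries, and Syt1 was above them.

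The 10 Y-linked genes, most of them used only in spermatocytes, summed to 62.7 and 18.6 TPM in WT, between 0.410 and 2.20 in the minor snRNA libraries and 91.5 and 13.2 in SmnΔ/Δ. These sums rest on CCY, at 53.15 TPM in WT 1, and on FDY, a copy of the autosomal gene vig2 with which it may share reads, at 89.5 TPM in SmnΔ/Δ 1. Of the other 8 Y-linked genes, 4 reached 1 TPM in any library. The dosage compensation RNAs roX1 and roX2 are made in male cells. For lncRNA:roX1 the WT libraries gave 88.3 and 37.7 TPM, those of U12Δ/Δ 243.5 and 379, those of U6atacΔ/Δ 98.6 and 69.5, and those of SmnΔ/Δ 31.5 and 413. The TPM of lncRNA:roX2 was 14.55 and 127 in WT, 0.614 and 28.5 in U12Δ/Δ, 0.48 and 82.3 in U6atacΔ/Δ, and 4.40 and 0.798 in SmnΔ/Δ. Both U12Δ/Δ libraries were above WT for roX1, while the minor snRNA libraries overlapped WT for roX2, whose libraries were far apart in every strain. The 6 fat body genes summed to 37433 and 64728 TPM in WT, between 28353 and 116163 in the minor snRNA libraries and to 3.89 and 0.507 TPM in SmnΔ/Δ. The 11 salivary glue and pre-glue genes summed to 16699 and 8560 TPM in WT and to 212320 and 664 in U12Δ/Δ. Their sums were 991 and 2791 in U6atacΔ/Δ and 1120 and 2387 in SmnΔ/Δ. Every library has the same TPM total, so a sum this large leaves less for the other genes of U12Δ/Δ 1. The part of each of these tissues in the values of the 34 genes was not tested.

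**Figure D3:**
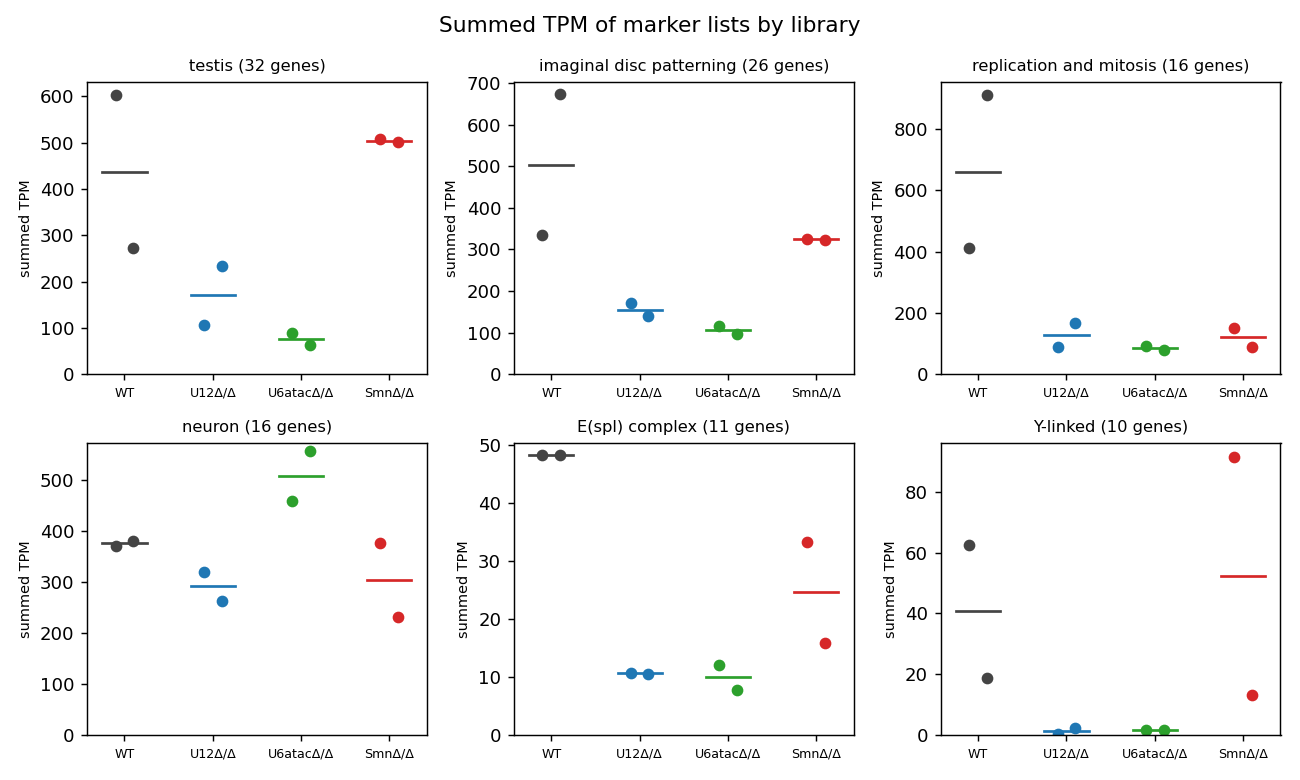
Summed TPM (vertical axes, from 0) of 6 gene lists in each library, with points for the libraries and a bar for the mean of the 2 libraries of a strain. The minor snRNA libraries lie below both WT libraries for the testis, imaginal disc, replication, E(spl) and Y-linked lists, and single genes such as betaTub85D, sd, ap, CCY and FDY carry much of some sums.

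The libraries of SmnΔ/Δ differed most for genes whose neighbours in the tables also differed. For CG14605 the median TPM of the 10 genes listed around it was 60.95 in SmnΔ/Δ 1 and 1.32 in SmnΔ/Δ 2. For CG31406 it was 2.65 and 79.3 TPM, and for unc-4 it was 31.0 and 342 TPM. In each case the neighbours were high in the same SmnΔ/Δ library as the gene. Across the 34 genes, the difference between the SmnΔ/Δ libraries on the log2(TPM + 1) scale had a Pearson r of 0.816 with that of the neighbours' median, and without these 3 genes the r over the other 31 was 0.247. These are descriptions, since the points share the same 2 libraries and the tables list many genes in the order of the chromosome. For the WT libraries the same r was 0.114. Among the genes with SmnΔ/Δ libraries at least 1 apart on that scale, 8 in all, the neighbours moved in the same direction in 7. The median of the neighbours was lower in all 4 minor snRNA libraries than in both WT libraries for 22 of the 34 genes, and for 30% of the 8251 genes. Listed is not always near. In 9 of the 34 genes none of the 10 listed genes lay within 100 kb, while in 20 at least 5 did, and the neighbours were lower in 14 of these 20. The part of this shared shift in the values of the 34 genes was not tested.

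**Figure D4:**
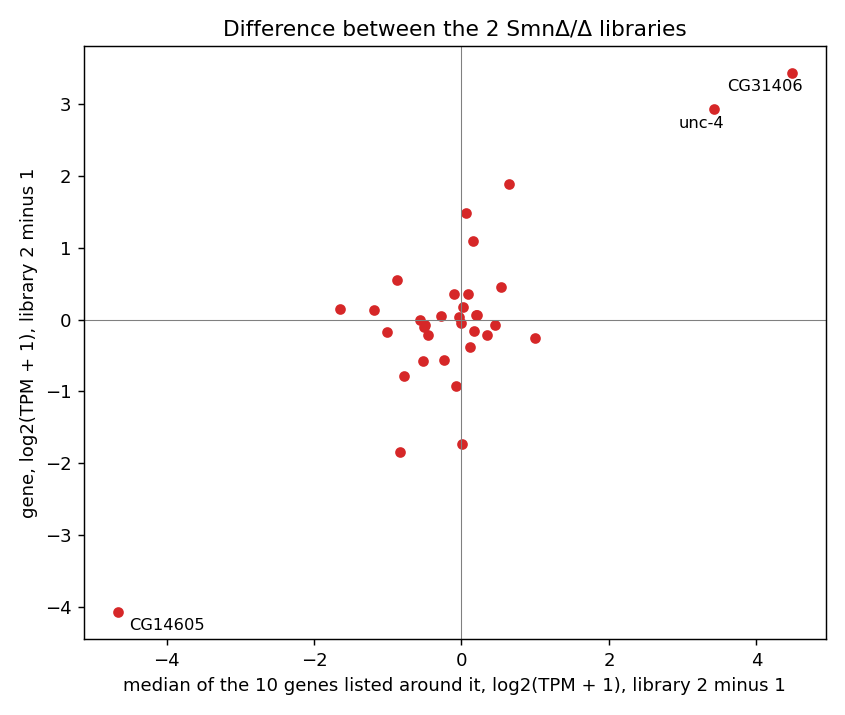
Difference of log2(TPM + 1) between the SmnΔ/Δ libraries (library 2 minus library 1) for each of the 34 genes (vertical axis) and for the median of the 10 genes listed around it (horizontal axis). CG14605, CG31406 and unc-4 lie far out on both axes and carry most of the r of 0.816.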

How the data were processed

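RNA-seq was done on 8 libraries of whole L3 larvae. Per the labels the libraries were made with an NEBNext Ultra RNA kit, and the submitters' processing notes name TopHat2, featureCounts and dm6, without versions. The authors deposited a TPM value for each of 17473 genes per library, with gene lengths. Depth is not in these files, and the step from reads to TPM is not given in the sources used here. Libraries were grouped by title. Symbols, biotypes and exons came from Ensembl's BDGP6.54 annotation, in which 17331 of the 17473 gene IDs were found and all 34 members have the tables' coordinates.

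The members and lists were chosen with earlier results of these data known, and the E(spl) list and 5 lists given in the closing section after their values were seen. All 34 members may be named, as their number was under 40. Comparisons used limma 3.58.1 in R 4.3.3 on log2(TPM + 1), a fit of 4 groups with an eBayes trend over genes averaging 1 TPM or more, Benjamini-Hochberg adjustment over all genes tested and a threshold of 0.05. The contrasts were SmnΔ/Δ minus WT, the mean of U12Δ/Δ and U6atacΔ/Δ minus WT, and SmnΔ/Δ minus that mean. A fold change on this scale understates the change of low genes. The fit was tested on simulated data with independent noise for each gene. Only rises were simulated, in genes with higher WT levels than most of the 34. That test therefore says nothing about falls in genes as low as these. The replicates are pools of different larvae from a strain, and 2 per strain allow no exact test under a p of 0.05 for a single gene. Alternatives were a pseudocount of 0.1, no filter or a mean TPM of 5, median-ratio scaling, quantile normalization, a replicate block, centring on 10 listed neighbours, eBayes without trend, other bounds of the rule and leaving out each library. Counts, lists and plots were made with pandas 2.3.3, numpy 2.4.6 and matplotlib 3.10.9 under Python 3.11.15. No sequences are shown, since no genome was used here.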

Additional observations from a re-analysis of the deposited data

Results flagged for a closer look

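The summed TPM of the neuron list moved in opposite directions in the minor snRNA deletions, with both U12Δ/Δ libraries below and both U6atacΔ/Δ libraries above both WT libraries. The mean of the U6atacΔ/Δ sums was 1.74 times that of the U12Δ/Δ sums. The U6atacΔ/Δ sums rest on few genes, mainly Syt1 in both libraries, nSyb in U6atacΔ/Δ 1 and Gad1 in U6atacΔ/Δ 2. They do not show a rise of the list as a whole. The disc gene sd was below both WT libraries in both U6atacΔ/Δ libraries, at 5.23 and 2.44 TPM, and above them in both SmnΔ/Δ libraries, with a ratio of 41.7 between the means of SmnΔ/Δ and U6atacΔ/Δ. Neither difference was tested.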

How the results depend on the processing

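The rule gave 34 genes, and 137 with a WT bound of 1 TPM, 1 with 5 TPM, 11 with a minor snRNA bound of 0.25 TPM, 113 with 1 TPM and 18 after median-ratio scaling. With a library left out it gave 34 to 257 genes, with 31 to 34 of the 34 retained. The count of genes under 0.5 TPM in both SmnΔ/Δ libraries was 14, and 8 with the bound divided by 2, and 17 to 20 from a single SmnΔ/Δ library. The count at 2 TPM or more in both was 2, and 0 with the bound doubled, and 5 from either single library. Genes within 10 kb of another numbered 0, and 0 to 33 with a library left out of the rule.

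With limma, the members called lower in SmnΔ/Δ against WT numbered 2. They numbered 1 with a pseudocount of 0.1, 9 without a filter, and 0 with a mean TPM of at least 5 (which tests 2 members), median-ratio scaling, quantile normalization, the replicate block, neighbour centring and eBayes without trend, and 0 to 4 with a library left out. In U12Δ/Δ and U6atacΔ/Δ against WT, 0 were called, 11 without a filter and 0 to 4 with a library left out. In SmnΔ/Δ against both, 0 were called higher, 3 with a pseudocount of 0.1, 1 without a filter and 0 to 3 with a library left out. Neighbour centring turned the log2 fold change of unc-4 in this contrast from 3.12 to −0.73. Over all genes, calls ran from 10 to 138 around 31 for SmnΔ/Δ lower than WT, from 0 to 120 around 0 for the minor snRNA deletions lower than WT, and from 96 to 284 around 181 for SmnΔ/Δ higher than the minor snRNA deletions. The causes were not tested.

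The replicate numbers mark no stated pairing, and the deviations of same-numbered libraries correlated at −0.0211 to 0.108 over 6 pairs of groups. With the replicate block, 0 members were called in each of the 3 comparisons. The tables give TPM without read numbers, so no counting interval was computed for the values under 1 TPM.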

Other observations

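Lists around the members' roles, chosen after their values were seen, give further genes of the same kinds and support nothing by themselves. The counts leave out the members. Of the 4 other spermatid chromatin genes, the protamine-like ProtA, ProtB, Mst77F and Prtl99C, 2 had all 4 minor snRNA libraries below both WT libraries, against 18.1% of all genes tested, and 4 had both SmnΔ/Δ libraries below both WT libraries, against 25.6%. ProtB stood at 35.0 and 4.09 TPM in WT, 0.154 and 1.06 in U12Δ/Δ, 18.0 and 2.125 in U6atacΔ/Δ and 0.190 and 0.650 in SmnΔ/Δ, so its U6atacΔ/Δ libraries overlapped WT. Of the 5 other meiotic cohesion and synapsis genes tested, 3 had all 4 minor snRNA libraries below both WT libraries. Corolla, a protein of the synaptonemal complex, was at 27.1 and 88.5 TPM in WT and between 0.172 and 9.95 TPM in the minor snRNA libraries. In U12Δ/Δ and U6atacΔ/Δ against WT limma called 0 genes of either list, and 2 of the 4 and 2 of the 5 were lower at an unadjusted p under 0.05, against 10% of all genes.

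In the count of genes with all 4 minor snRNA libraries below both WT libraries, the lists around zuc and Mcm10 lay nearer to the share over all genes. Of the 16 piRNA pathway genes tested, which do not include zuc, 3 had all 4 minor snRNA libraries below both WT libraries, or 18.8%. Of the 18 genes of pre-replication and origin firing tested beside Mcm10, 3 did, or 16.7%. Of the 2 copper transporters beside Ctr1C, 0 did, and Ctr1A was at 24.9 and 18.0 TPM in WT and between 8.15 and 52.2 TPM in the minor snRNA libraries. Other measures lay further from the share over all genes. Both SmnΔ/Δ libraries were below both WT libraries in 10 of the 18 pre-replication genes and 4 of the 16 piRNA genes, against 25.6%. In the minor snRNA deletions, 4 of the 18 and 3 of the 16 were lower at an unadjusted limma p under 0.05, against 10%.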
